A study of Homo sapiens with 8 samples.

Results

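Glucose crosses the plasma membrane on 2 kinds of carrier, and 8 of their genes are described here in HuCCT1, an established human cell line from a bile duct cancer. The genes are SLC5A1 of the sodium-coupled family and SLC2A1, SLC2A3, SLC2A6, SLC2A8, SLC2A10, SLC2A12 and SLC2A13 of the facilitative family. All 8 were measured, among 19775 genes. They were selected on the values of these same arrays, with the rise of SLC5A1 between the groups already known, so the differences of these 8 genes are given as descriptions without a test. Together 18 probe sets name 1 of these genes alone, and the brightest one on average of each gene is called its main probe set.

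The study compared 4 samples with a control scrambled shRNA and 4 samples with 1 shRNA against YAP1, named YAP shRNA 1 in the labels. YAP1 encodes the coactivator through which the Hippo pathway acts on transcription. All 8 samples, controls included, received doxycycline at 100 ng/ml from 3 days before seeding, which switches the shRNA on. A single shRNA against YAP1 in a single line was used. Whether the replicates were separate cultures is not stated, and the p-values therefore cover only a spread among samples that could be technical. The series title speaks of overexpression, whereas the design and labels describe an shRNA. YAP1 itself stood at 12.64 ± 0.086 with the control shRNA and at 10.50 ± 0.0702 with the YAP shRNA on the log2 scale (SD, n = 4 and 4), 4.41-fold lower.

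As background, SLC5A1 encodes SGLT1, which carries glucose and galactose into the cell together with sodium and can work against a glucose gradient. The sodium pump keeps up the gradient that drives it. SGLT1 is best known from the brush border of the small intestine and the kidney tubule, and it has been described on bile duct cells, which take glucose up from bile. The SLC2A genes encode the GLUT carriers, which let hexoses pass down their gradient. Once inside, glucose is trapped by phosphorylation and enters glycolysis.

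Promoter sequence is shown for SLC5A1, SLC2A6 and SLC2A8, since the arrays of the 2 groups did not overlap for these genes. RefSeq entries of GRCh38.p14 matched 7 of the 8 genes (SLC2A3 had none). Each line below holds the 250 bases before the start of the gene, read 5′ to 3′ on the strand of the gene. They lie at chr22:32043011-32043260 on the plus strand, chr9:133479100-133479349 on the minus strand and chr9:127396919-127397168 on the plus strand. Capitals mark matches on either strand to the motifs searched.
SLC5A1: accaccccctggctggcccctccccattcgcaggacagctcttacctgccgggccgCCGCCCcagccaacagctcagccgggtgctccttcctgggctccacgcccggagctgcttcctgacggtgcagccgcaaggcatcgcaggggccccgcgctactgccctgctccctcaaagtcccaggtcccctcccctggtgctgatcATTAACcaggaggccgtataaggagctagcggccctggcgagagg
SLC2A6: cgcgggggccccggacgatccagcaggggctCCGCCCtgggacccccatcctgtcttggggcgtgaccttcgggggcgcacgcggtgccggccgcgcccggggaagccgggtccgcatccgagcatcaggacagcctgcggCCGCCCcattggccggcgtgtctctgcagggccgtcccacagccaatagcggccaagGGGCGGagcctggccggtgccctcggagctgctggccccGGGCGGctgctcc
SLC2A8: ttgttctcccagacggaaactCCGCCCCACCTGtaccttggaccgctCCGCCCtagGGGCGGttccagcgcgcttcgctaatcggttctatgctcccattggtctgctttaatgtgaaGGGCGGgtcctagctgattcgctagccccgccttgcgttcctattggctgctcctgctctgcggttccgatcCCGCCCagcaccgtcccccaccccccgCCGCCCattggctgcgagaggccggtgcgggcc

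The motifs were GGAATG for the TEAD partners of YAP, GTTAAT as one arm of the HNF1 site, GGGCGG as the GC box, CAGGTG as the E-box bound by ZEB and SNAIL repressors, CACGTG as the palindromic E-box, and TGANTCA for AP-1. The SLC5A1 window held 1 HNF1 arm, from -45 to -40 relative to the start, and 1 GC box, from -194 to -189. HNF1 factors are known regulators of SLC5A1. The HNF1 arm was found in 6.23% of all 35116 promoter windows of that length, and among the 7 genes also in SLC2A13. The SLC2A6 and SLC2A8 windows held 4 and 6 GC boxes, a motif present at least once in 42.6% of windows. SLC2A13, SLC2A10 and SLC2A1, whose groups overlapped, held 5, 3 and 2. SLC2A8 thus held the most of the 7 windows and SLC2A6 fewer than SLC2A13, and nothing is read from these counts. G and C made up 76.8% of the SLC2A6 window and 65.2% of the SLC2A8 window, where the median window has 58%. SLC2A8 also held 1 CAGGTG (17.5% of windows), which directly follows a GC box. SLC2A12 held the AP-1 motif once (6.57%) and SLC2A13 the palindromic E-box once (6.34%). No window of the 7 held GGAATG, which 11.9% of windows hold, and this says only that these letters are not in these bases. The motif lists are descriptions and mark no bound site.

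Among the 8 genes, SLC5A1, SLC2A3 and SLC2A6 were higher on every YAP shRNA array than on any control array, SLC2A8 was lower on every one, and the other 4 overlapped. Over all genes, every YAP shRNA array lay above every control array for 13.4% and below for 10.9%. Because the 8 were chosen with these values known, nothing is read from that count. Their mean was higher with the YAP shRNA for 4 and lower for 4, and the median log2 difference was 0.04, against 0.01 over all genes. Only SLC5A1 differed by more than 1.36-fold among the main probe sets.

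**Figure D1:**
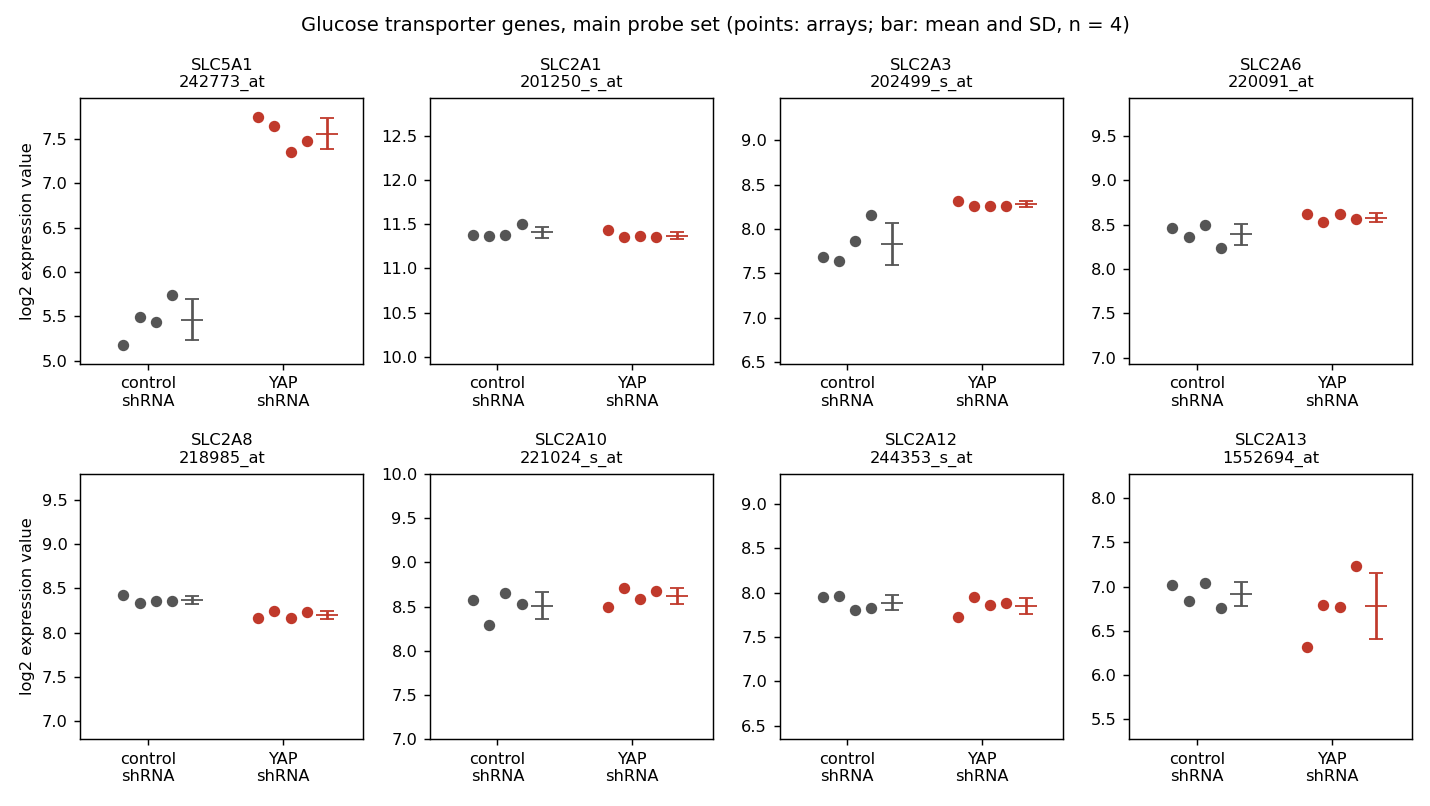
Log2 expression value (vertical axis, each panel spanning 3 log2 units around its own level) of the main probe set of each of the 8 genes on every array, by shRNA; points are arrays and the bar beside them is the mean with SD (n = 4). The YAP shRNA arrays of SLC5A1 sit between 7.36 and 7.75, above control arrays at 5.18 to 5.74, while the other 7 genes move little on the same span.

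SLC5A1 was the sodium-coupled carrier of the set and the gene with the largest difference. On its main probe set the control arrays read 5.18, 5.49, 5.44 and 5.74, and the YAP shRNA arrays 7.75, 7.65, 7.36 and 7.48, for replicates 1 to 4. The groups lay far apart, and the spread within each was small against the gap. The means were 5.46 ± 0.232 and 7.56 ± 0.175 (SD, n = 4 and 4), a log2 difference of 2.10 with a standard error of 0.126, or 4.28-fold. Control values lay below the median gene level of 7.44, and the values with the YAP shRNA near it.

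The size of that difference depended on the probe set. The other SLC5A1 probe set read 5.36, 5.75, 5.54 and 5.62 on the control arrays, with a mean of 5.57 ± 0.164, and 6.84 ± 0.131 on the YAP shRNA arrays (SD, n = 4 and 4). These groups too were fully apart, the lowest YAP shRNA array reading 6.70. Its log2 difference was 1.27 with a standard error of 0.0943, or 2.42-fold, and the mean of both probe sets gave 1.69. The main probe set was chosen by a mean only 0.30 higher over the 8 arrays. It was the dimmer one on control arrays (5.46 against 5.57) and the brighter one only with the YAP shRNA (7.56 against 6.84). The choice thus rested on the group where it is high, which favours the larger difference and the higher rank. With the main probe set SLC5A1 ranked 1 among the rises of all genes, and with the other one it would rank 21. Both probe sets placed YAP shRNA replicates 1 and 2 above replicates 3 and 4, and both gave the lowest control value in replicate 1.

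**Figure D2:**
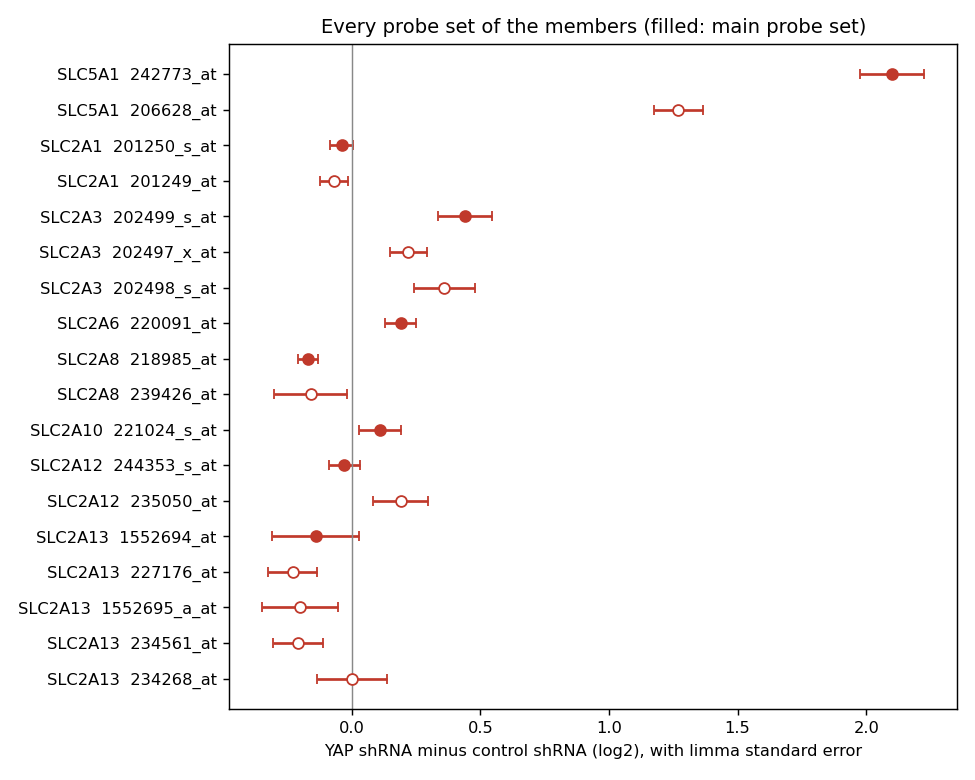
Log2 difference, YAP shRNA minus control shRNA (horizontal axis), with limma standard errors, for all 18 probe sets of the 8 genes; filled points are the main probe sets. Both SLC5A1 probe sets stand apart at 2.10 and 1.27, and the 16 others lie between -0.23 and 0.44.

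Of the 6 measured genes nearest to SLC5A1 on chromosome 22, 3 on each side in RefSeq order, 1 passed the test that is defined below. Of all genes, 9.49% passed it upward and 7.17% downward, so nothing is read from that count. The gene was DEPDC5, a subunit of the GATOR1 complex that restrains mTORC1, which rose by 0.43 (limma adjusted p = 0.00217). Its neighbours YWHAH, a 14-3-3 protein gene, and YWHAH-AS1 each stood at -0.09 (limma adjusted p = 0.455 and 0.578). On the other side C22orf42, RFPL2 and SLC5A4, a close relative of SLC5A1, stood at 0.11, 0.11 and 0.05 (limma adjusted p = 0.435, 0.246 and 0.841). The median over the 460 measured genes of chromosome 22 was 0.01.

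Genes were ranked by how near their array profile lay to that of SLC5A1. Profiles were centred on their mean and compared by the root mean square difference over the 8 arrays, in log2 units. The nearest 5 were C16orf54 (0.327), SPRR1B (0.349), TMEM163 (0.354), GTSF1 (0.376) and DSG3 (0.382), and the median gene lay at 1.06. SPRR1B is a cornified envelope precursor and DSG3 a desmosomal cadherin. The other SLC5A1 probe set lay at 0.429, farther than all 5, since its difference was smaller. Their own differences were 1.62, 1.54, 1.64, 1.57 and 1.40, and none was a sugar carrier. The measure uses the size of the difference between the groups, and so it carries no test.

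**Figure D3:**
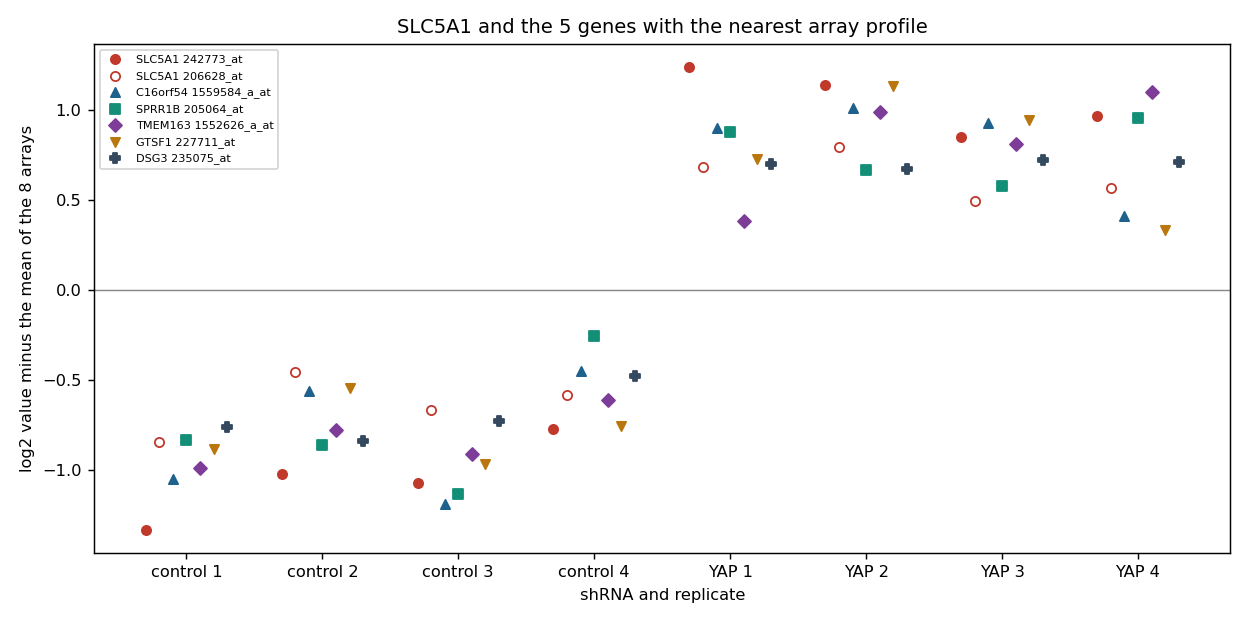
Log2 value minus the mean of the 8 arrays (vertical axis) for each array (horizontal axis), for both SLC5A1 probe sets and the 5 genes nearest to the main one. The markers of every gene lie below 0 on the 4 control arrays and above 0 on the 4 YAP shRNA arrays, and the main SLC5A1 probe set spans the widest range.

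The class I carriers of the set are SLC2A1 and SLC2A3. SLC2A1 encodes GLUT1, the basal glucose carrier of most cells and of most tumour lines. Its main probe set read 11.38, 11.37, 11.38 and 11.50 on control arrays and 11.43, 11.35, 11.37 and 11.35 on YAP shRNA arrays. The groups overlapped, and the log2 difference was -0.04 with a standard error of 0.0444. The second probe set gave -0.07 with a standard error of 0.0534.

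SLC2A3 encodes GLUT3, a carrier of high affinity known from neurons. Its main probe set read 7.68, 7.64, 7.86 and 8.16 on control arrays and 8.32, 8.26, 8.26 and 8.26 on YAP shRNA arrays. All YAP shRNA arrays were higher, and the control arrays were far more spread, with SDs of 0.235 and 0.0315. The log2 difference was 0.44 with a standard error of 0.105, or 1.36-fold. Control shRNA replicate 4 gave the highest control value, and without it the difference was 0.55. That array also agreed least with its group across genes, with a mean correlation of 0.9967 where the other control arrays had 0.9978 to 0.9980. Its part in the spread was not tested.

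The other SLC2A3 probe sets were also higher on average but overlapped. They gave 0.22 and 0.36, and on the second of these control shRNA replicate 4, at 7.09, lay within the YAP shRNA range of 6.96 to 7.15. Both probe sets annotated to SLC2A3 together with its close copy SLC2A14 gave 0.28 and 0.35, again with overlapping groups. Every SLC2A3 probe set is of a type that can bind related transcripts (suffix _s_at or _x_at), so signals of SLC2A3 and of SLC2A14 cannot be told apart here.

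SLC2A6 and SLC2A8 are class III carriers that sit largely on internal membranes, and the first was higher and the second lower with the YAP shRNA. SLC2A6, which encodes GLUT6 of lysosomal membranes, read 8.46, 8.36, 8.50 and 8.24 on control arrays and 8.62, 8.53, 8.62 and 8.56 on YAP shRNA arrays. The gap between the groups was narrow, from 8.50 to 8.53. The log2 difference was 0.19 with a standard error of 0.0611, a 14.2% higher signal. It has 1 probe set, and its difference ranged from 0.14 to 0.23 as each array was left out.

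SLC2A8, which encodes GLUT8, was the 1 gene lower on every YAP shRNA array. It read 8.43, 8.34, 8.36 and 8.36 on control arrays and 8.16, 8.24, 8.17 and 8.23 on YAP shRNA arrays. Replicates agreed closely, with SDs of 0.0409 and 0.0421. The log2 difference was -0.17 with a standard error of 0.04, a change of -11.2%. Its dim second probe set gave -0.16 with overlapping groups and a standard error of 0.141, and with the mean of both probe sets the groups of SLC2A8 overlapped.

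SLC2A10, SLC2A12 and SLC2A13 had overlapping groups. SLC2A10 encodes GLUT10, whose loss causes arterial tortuosity. It read 8.57, 8.29, 8.65 and 8.53 on control arrays and 8.50, 8.71, 8.59 and 8.68 on YAP shRNA arrays, a difference of 0.11 with a standard error of 0.0827. SLC2A12, the GLUT12 gene, ranged from 7.81 to 7.96 and from 7.73 to 7.95 on its main probe set, a difference of -0.03 with a standard error of 0.0607. Its dim second probe set went the other way, at 0.19 with a standard error of 0.106. Without YAP shRNA replicate 1 the main probe set gave 0.01, so no direction is given for this gene.

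SLC2A13 encodes HMIT, a proton-coupled carrier of myo-inositol rather than of glucose. Its main probe set read 7.02, 6.84, 7.04 and 6.76 on control arrays and 6.32, 6.79, 6.77 and 7.23 on YAP shRNA arrays. The YAP shRNA arrays were the more spread, with replicate 1 low and replicate 4 high (SD 0.371 against 0.136). The difference was -0.14 with a standard error of 0.169, and it was 0.01 without YAP shRNA replicate 1 and -0.29 without replicate 4. The other 4 probe sets gave -0.23, -0.20, -0.21 and -0.00, all with overlapping groups, and YAP shRNA replicate 4 was the highest of its group on all 5.

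The other measured genes of both families lay between -0.15 and 0.18. SLC2A6 and SLC2A8, at 0.19 and -0.17, lay only just outside that span. Here and in the neighbour genes, a gene was called changed at an adjusted p below 0.05 (limma, Benjamini-Hochberg over all genes), a threshold passed upward by 9.49% and downward by 7.17% of all genes. None of 5 other SLC2A genes passed (limma, 0 of them at an unadjusted p under 0.05). SLC2A9, a urate carrier, stood at 0.18 (limma adjusted p = 0.429) and SLC2A5, the fructose carrier GLUT5, at 0.11 (limma adjusted p = 0.485). SLC2A11 and SLC2A2, the GLUT2 of hepatocytes, stood at 0.04 and 0.05, and SLC2A4, the insulin-responsive GLUT4, at -0.01. All 5 lay below the median gene level.

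None of 11 other SLC5A genes passed either, although 3 had an unadjusted p under 0.05 (limma). The kidney glucose carrier gene SLC5A2, which encodes SGLT2, stood at -0.15 (limma adjusted p = 0.166). SLC5A3, a myo-inositol carrier, and SLC5A6, the multivitamin carrier, were the bright members, at 0.12 and 0.13 (limma adjusted p = 0.136 and 0.148). SLC5A3 lay above its controls on every YAP shRNA array, at 11.20 to 11.23 against 10.98 to 11.17. The 8 remaining genes, SLC5A4, SLC5A5 and SLC5A7 to SLC5A12, lay between -0.07 and 0.08.

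Of 10 measured subunits and regulators of the sodium pump, 1 rose, where 9.49% of all genes did, so nothing is read from that count. FXYD3, a small regulator of the pump, rose by 1.11 (limma adjusted p = 0.000311), from 8.38 ± 0.252 to 9.50 ± 0.0255 (SD, n = 4 and 4). It was measured only by probe sets that can bind related transcripts. The catalytic alpha subunits were not analysed here. The beta subunits ATP1B1 and ATP1B3 stood at 0.03 and -0.05 (limma adjusted p = 0.731 and 0.412).

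Regulators of carrier amount and placement moved in both directions. Of 14 measured, 2 rose and 5 fell, with a median of -0.07, where 9.49% of all genes passed upward and 7.17% downward. Only 1 of the 14 lay below the median gene level. The list was chosen with earlier results of these data known, so nothing is read from that count. The number called was 4 without control shRNA replicate 3 or YAP shRNA replicate 1, 3 or 4. SGK1, a kinase that raises the surface amount of several carriers including SGLT1, fell by 1.08 (limma adjusted p = 2.44e-05), from 11.91 ± 0.0961 to 10.83 ± 0.0753 (SD, n = 4 and 4). NEDD4L, the ubiquitin ligase that SGK1 restrains, fell by 0.54 (limma adjusted p = 0.000727). EPAS1, the hypoxia factor HIF-2 alpha, fell by 0.36 (limma adjusted p = 0.000397), and stood at -0.13 with the mean of its probe sets (limma adjusted p = 0.163). PRKAA2, a catalytic subunit of AMPK, fell by 0.21 (limma adjusted p = 0.0268).

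MLXIP and TXNIP were the regulators that rose. MLXIP, a glucose-sensing transcription factor, rose by 0.22 (limma adjusted p = 0.00238), and stood at 0.06 with the mean of its probe sets (limma adjusted p = 0.409). TXNIP, the arrestin-like protein that withdraws GLUT1 from the membrane, rose by 0.20 (limma adjusted p = 0.0268). The TXNIP call was lost on leaving out any array but control shRNA replicate 4 (limma adjusted p = 0.0535 to 0.0751). The PRKAA2 call was lost without control shRNA replicate 1 or 3 or YAP shRNA replicate 1, 3 or 4 (0.0537 to 0.0711). HIF1A, the main hypoxia factor, stood at -0.12 and did not pass (limma adjusted p = 0.162).

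Genes of the first steps of hexose handling inside the cell rose in part, by small amounts. The list holds genes for phosphorylating, dephosphorylating or first converting sugars, and includes the solute carrier gene SLC37A4. Of 14 measured, 5 rose and 0 fell, with a median of 0.13, where 9.49% of all genes passed upward and 7.17% downward. GALT and GALK1 of galactose breakdown rose by 0.26 and 0.21 (limma adjusted p = 0.036 and 0.0319), KHK, the fructokinase, by 0.20 (limma adjusted p = 0.0226), and ADPGK, an ADP-dependent glucokinase, by 0.18 (limma adjusted p = 0.00873). SLC37A4 rose by 0.15 (limma adjusted p = 0.0235). The hexokinase genes HK1 and HK2 stood at 0.05 and 0.02 (limma adjusted p = 0.591 and 0.845). Leaving out 1 array ended the call of GALK1 for 6 of the 8 arrays (limma adjusted p = 0.0524 to 0.0897; kept without control shRNA replicate 3 or 4), of GALT for 6 (0.0571 to 0.0976; kept without control shRNA replicate 1 or 4) and of KHK for 5 (0.0553 to 0.0644; kept without control shRNA replicate 1 or 4 or YAP shRNA replicate 2). With the mean of its probe sets GALT stood at 0.18 (limma adjusted p = 0.154). In all, 1 to 5 genes were called as each array was left out. There was 1 without control shRNA replicate 2, YAP shRNA replicate 3 or YAP shRNA replicate 4, 2 without YAP shRNA replicate 1 or 2, and 3 without control shRNA replicate 3.

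Of 21 measured glycolysis genes, 3 rose and 0 fell, with a median of 0.06. That is 14.3% of the list, where 9.49% of all genes passed upward and 7.17% downward, so nothing is read from that count. PFKFB4, a regulator of phosphofructokinase, rose by 0.50 (limma adjusted p = 0.00498), or by 0.23 with the mean of its probe sets (limma adjusted p = 0.00883). PFKL, the liver phosphofructokinase, rose by 0.24 (limma adjusted p = 0.00795) and GPI, the glucose phosphate isomerase, by 0.15 (limma adjusted p = 0.0392). The GPI call was lost on leaving out any array but control shRNA replicate 4 (limma adjusted p = 0.0555 to 0.105). The 8 brightest genes of the list, GAPDH, LDHA, ENO1, PKM, ALDOA, TPI1, PGAM1 and PGK1, lay between -0.09 for PGAM1 and 0.08 for ALDOA (limma adjusted p = 0.146 and 0.181, the lowest of the 8). Every YAP shRNA array lay above the controls for ALDOA, and below for GAPDH, TPI1 and PGAM1. Over all genes this held for 13.4% above and 10.9% below. The gaps were narrow, as for TPI1 at 13.56 to 13.57 against 13.58 to 13.60 in controls, and none of the 8 passed.

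**Figure D4:**
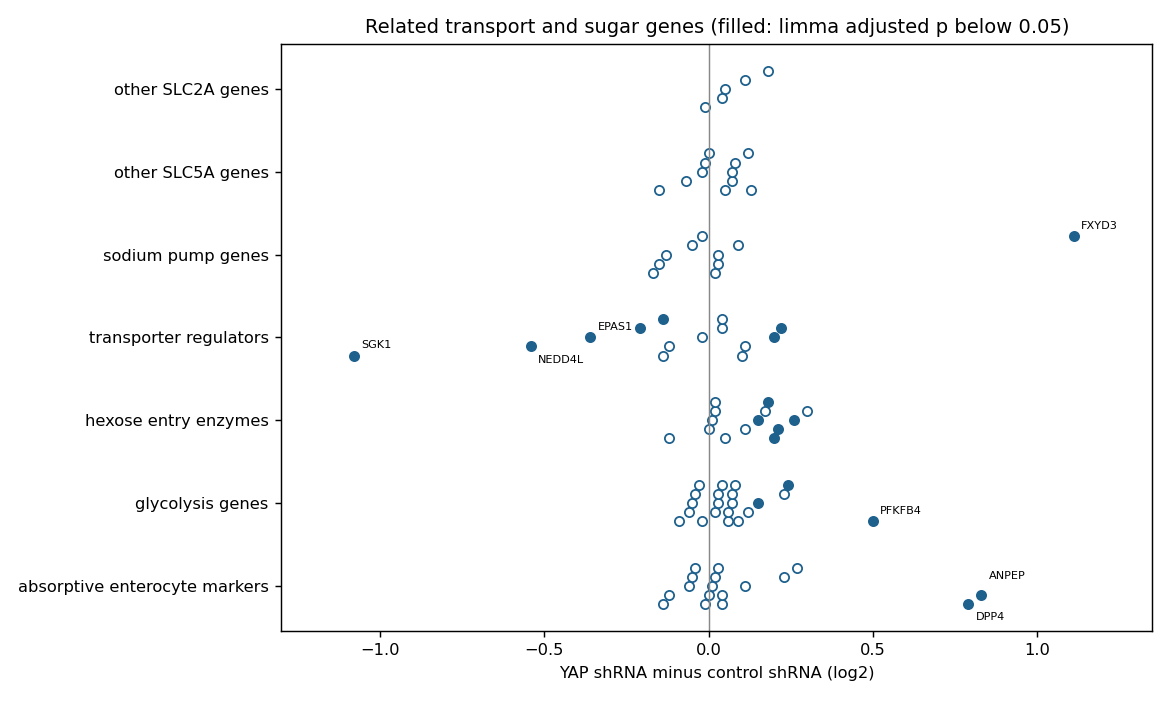
Log2 difference, YAP shRNA minus control shRNA (horizontal axis), of each measured gene of 7 lists (rows, with points offset for legibility); filled points had a limma adjusted p below 0.05. The other SLC2A and SLC5A genes all lie between -0.15 and 0.18, while FXYD3 at 1.11 and SGK1 at -1.08 stand farthest out.

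SLC5A1 is an absorptive cell gene, so markers of such cells were read beside it. Of 17 absorptive enterocyte markers, 2 rose and 0 fell: the brush border peptidase genes ANPEP and DPP4, by 0.83 and 0.79 (limma adjusted p = 0.000541 and 0.00283). That is 11.8% of the list, where 9.49% of all genes passed upward and 7.17% downward, so nothing is read from that count. ANPEP stood at -0.01 (limma adjusted p = 0.919) on the brighter of its other probe sets, the main one being of the type that can bind related transcripts. With the mean of its probe sets ANPEP stood at 0.35 (limma adjusted p = 0.0152). Of the 17 markers, 14 lay below the median gene level, and the exceptions were ANPEP, DPP4 and the peptide carrier gene SLC15A1, at 9.51 and 9.78 (limma adjusted p = 0.131). The disaccharidase genes were dim in both groups, with control and YAP shRNA means of 2.00 and 2.03 for SI, 4.54 and 4.48 for LCT, and 4.34 and 4.57 for MGAM (limma adjusted p = 0.733, 0.728 and 0.136). The lowest value on any array was 1.72. The mean level over the list ran from 5.69 to 5.94 in control arrays and from 5.89 to 5.97 in YAP shRNA arrays. None of 9 proximal tubule markers passed (limma, 3 at an unadjusted p under 0.05).

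Of the markers of bile duct cells, the labelled origin, KRT7, KRT8, KRT18, KRT19, EPCAM and SOX9 were bright. Their control means were 13.68, 12.63, 14.20, 14.04, 13.06 and 13.23. CFTR was dim, with control and YAP shRNA means of 5.56 and 6.62, below the median gene level of 7.44. Of 7 biliary markers 2 rose, CFTR by 1.07 (limma adjusted p = 0.00128) and KRT19 by 0.15 (limma adjusted p = 0.0137). With the mean of its probe sets CFTR stood at 0.25 (limma adjusted p = 0.0214). Of all genes, 9.49% passed upward and 7.17% downward, and nothing is read from any marker count given here. Rises and falls numbered 1 and 0 of 8 hepatocyte, 1 and 0 of 6 fibroblast, 2 and 1 of 4 leukocyte and 0 and 0 of 5 endothelial markers (limma, 1 endothelial marker at an unadjusted p under 0.05). Of these, SERPINA1 and COL1A1 rose by 0.19 and 0.52, LYZ and CD14 by 0.86 and 0.46, and PTPRC, the leukocyte antigen CD45, fell by 0.22 from a dim 3.96. The adjusted p-values (limma) were 0.00877, 0.00316, 0.00516, 0.0112 and 0.0408 in that order, and the PTPRC call was lost on leaving out any array but control shRNA replicate 1 or YAP shRNA replicate 1 (0.0663 to 0.111). With the mean of their probe sets COL1A1 stood at 0.29 (limma adjusted p = 0.00264) and PTPRC at -0.05 (limma adjusted p = 0.498). Without probe sets able to bind related transcripts SERPINA1 stood at 0.47, LYZ at 0.49 and PTPRC at -0.04 (limma adjusted p = 0.00727, 0.0559 and 0.785). The mean level of the leukocyte list ran from 4.76 to 4.95 in control arrays and from 5.04 to 5.19 in YAP shRNA arrays. The part of these markers in the SLC5A1 difference was not tested. In RNA from a whole culture, more cells with a transcript and more of it per cell cannot be told apart.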

How the data were processed

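RNA of 8 HuCCT1 samples was measured on Affymetrix arrays after amplification and biotin labelling, per the labels' protocols. The authors deposited 1 log2 value for each probe set on each array. Base 2 is an inference from the values, which span 1.72 to 14.89. How the authors corrected background and normalized is not stated in the labels. Array medians of 6.22 to 6.25 allowed use without further normalization. Of 54675 probe sets, 41097 carried 1 gene symbol in GEO's platform annotation, 1801 several and 11777 none; 41043 matched RefSeq (GRCh38.p14) by Entrez ID. No other columns of values were present in the table.

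Differences, YAP shRNA minus control shRNA, were fitted with limma 3.58.1 in R 4.3.3 (empirical Bayes, no block, no filter) across all 19775 genes, 1 probe set a gene, with Benjamini-Hochberg adjustment. The fit was run on simulated data with equal spread in both groups, as a check of the code only. Besides the 8 carriers and YAP1, named genes were the other SLC2A and SLC5A genes, up to 4 largest called rises and falls of each list whose arrays did not overlap, the 5 genes nearest in profile and the 3 neighbours on each side. Others were named after their values were seen. These were HK1, HK2, SLC37A4, HIF1A, ATP1B1, ATP1B3, SI, LCT, MGAM, SLC15A1, the bright biliary markers and the brightest glycolysis genes. The genes and lists were chosen with earlier results of these data known. Alternatives were other normalizations, filters, probe set choices and spread models, a block on replicate number, and leaving out each array. Precision is limited by the number of arrays.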

Additional observations from a re-analysis of the deposited data

Results flagged for a closer look

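In 136 groups of 4 arrays, from 68 probe sets of the carriers and the other named genes, 12 had 1 array far from its 3 fellows, where chance gives about 6.8. Among the carriers these were SLC2A1 in control shRNA replicate 4 (11.50, the others 11.37 to 11.38) and SLC2A3 in YAP shRNA replicate 1 (8.32, the others 8.26). SLC2A13 was high on one probe set in control shRNA replicate 3 (6.79, the others 6.41 to 6.45) and in YAP shRNA replicate 4 (6.75, the others 6.14 to 6.19), and on another in control shRNA replicate 2 (4.98, the others 4.79 to 4.81).

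Among the other genes, control shRNA replicate 4 was low for DEPDC5 (9.31) and GALK1 (9.25), and control shRNA replicate 3 was high for YAP1 (12.77). YAP shRNA replicate 1 was low for SGK1 (10.72) and YWHAH (11.13), replicate 3 high for SLC5A4 (3.71) and replicate 4 low for SLC5A9 (4.25). Control shRNA replicate 4 and YAP shRNA replicate 1 each held 3 of the 12. No cause was tested.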

How the results depend on the processing

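The SLC5A1 difference was 1.69 with the mean of its probe sets and otherwise stayed between 2.00 and 2.19, also over each array left out; it had no value once the dimmer genes, those under the median level, were removed. The number of carriers whose groups did not overlap was 3 to 5 under all alternatives run, and 4 to 5 over each array left out. SLC2A12 stood at 0.08 with the mean of probe sets and at 0.19 without _x_at and _s_at probe sets, under which SLC2A3 and SLC2A10 had no value. Quantile normalization and median centring turned the sign of none of the 8.

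Over all genes, 3294 were called; every probe set tested gave 5580 probe sets, the replicate block 2106, and each array left out 2381 to 3881. Same-numbered arrays did not deviate together across genes (correlations of -0.206 to 0.002). The labels state no pairing, and these correlations cannot show that there was none. Under the replicate block SLC5A1 stayed at 2.10, and 1 gene of the hexose list and 4 regulators were called. Genes of the hexose list numbered 3 with the mean of probe sets and 2 without _x_at and _s_at probe sets (ADPGK, GALK1 and KHK then have no value). Over each array left out they numbered 1 to 5. Regulators numbered 4 to 7 over each array left out. There were 4 without control shRNA replicate 3 or YAP shRNA replicate 1, 3 or 4. Glycolysis genes numbered 5 without the dimmer genes, 1 without _x_at and _s_at probe sets, 7 with trend and robust fitting and 2 to 3 over each array left out. GPI and PFKL had no value without _x_at and _s_at probe sets. Sodium pump genes numbered 2 without the dimmer genes, 0 without _x_at and _s_at probe sets (FXYD3 then has no value) and 2 with trend and robust fitting. ANPEP turned to -0.01 without _x_at and _s_at probe sets. Causes were not tested beyond the fewer genes or arrays of each alternative. The 4 arrays a group and dim probe sets, which carry no detection call, limit precision.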
